A study of Homo sapiens and Mus musculus with 16 samples.

Results

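The genes described here were 34 enzymes and helpers of mucin-type glycosylation, with every accessible chromatin region lying within 50 kb of a transcription start site of any of them. ATAC-seq, which marks open chromatin by the insertion of a transposase, had been run on 16 samples in 4 groups of 4 replicates, and 1 list of regions per group was analysed. HPAF-II, a human pancreatic adenocarcinoma cell line, was compared as control (Cas9) cells, labelled WT and treated with CRISPR-Cas9, and as HNF4G-KO cells, labelled KO and treated with CRISPR against HNF4G, the gene of a nuclear receptor. Both HPAF-II groups had been exposed to Cas9, and the HNF4G-KO cells were a pool of clones. Whether the control cells had been cloned is not stated, so the edit and cloning cannot be told apart. KPC cells, from an engineered mouse model that develops pancreatic tumors, were compared as a primary tumor line and a liver mets line, both labelled WT and untreated, and described by the study as matched and isogenic. Each KPC group was therefore 1 cell line, and line and site cannot be told apart.

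All 34 genes were found in the human annotation and all 34 mouse genes of the same symbol in the mouse annotation. The distinct regions near them numbered 432 of 118107 in control (Cas9), 387 of 97047 in HNF4G-KO, 318 of 68074 in the primary tumor and 330 of 80843 in liver mets. A member was the nearest protein-coding gene for 290, 257, 195 and 204 of these regions, and the other regions lay closer to another gene. Windows of neighboring members overlapped (ST6GALNAC1 with ST6GALNAC2, ST6GALNAC4 with ST6GALNAC6), so 26, 23, 15 and 18 regions counted for more than 1 member.

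Mucin-type glycosylation builds sugar chains on the serines and threonines of mucins and other secreted or membrane proteins. GALNT enzymes attach the first N-acetylgalactosamine in the Golgi, C1GALT1 with its chaperone C1GALT1C1 adds galactose to it, GCNT enzymes and B3GNT6 make the branched and the core 3 forms, and further transferases lengthen the chain and cap it with fucose or sialic acid. Pancreatic ductal cells secrete mucins, and truncated and sialylated chains such as sialyl-Tn and sialyl Lewis a, the antigen of a common blood test for this cancer, are well known in pancreatic cancer.

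The deposited files hold no values per replicate, so no test between groups was possible and every difference below is between 2 lists. Each region has a score whose scale is not stated. It was used only as a percentile, the share of regions of the same list with a score at or below it. A region was in 1 list (control-only, KO-only, tumor-only or mets-only) where it overlapped no region of the other list of its pair by even 1 bp, and shared otherwise. For a shared region the change is its percentile in HNF4G-KO or liver mets less that in control (Cas9) or the primary tumor, ranked among shared regions alone, in percentile points, and regions that rose or fell are those with a change above or below 0. Since HNF4G-KO and liver mets lists differ in length from their partners, percentiles within whole lists, given for single regions, shift between lists even where the rank among shared regions does not.

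The HNF4 consensus CAAAGTCCA, on either strand, stood in 6 control (Cas9) regions near members (1.39% of 432, against 1.60% of all regions of that list). They are shown because HNF4G is the factor removed in the knockout and belongs to the family known to bind this sequence. Capitals mark the consensus, which reads TGGACTTTG where it lies on the minus strand. They also mark 3 shorter consensus sequences searched on both strands, which are TGTTTAC for the FOXA factors, AGATAAG for the GATA factors and TGANTCA for AP-1. At GCNT3 the capitals join an AP-1 and an HNF4 consensus that overlap.
GALNT7, chr4:173191851-173191930, hg38, plus strand: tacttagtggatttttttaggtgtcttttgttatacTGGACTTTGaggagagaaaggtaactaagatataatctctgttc
GALNT7, chr4:173219114-173219193, hg38, plus strand: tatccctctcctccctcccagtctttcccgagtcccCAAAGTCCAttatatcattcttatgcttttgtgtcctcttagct
B3GNT5, chr3:183278538-183278617, hg38, plus strand: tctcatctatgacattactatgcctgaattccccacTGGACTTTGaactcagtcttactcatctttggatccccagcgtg
FUT2, chr19:48695823-48695902, hg38, plus strand: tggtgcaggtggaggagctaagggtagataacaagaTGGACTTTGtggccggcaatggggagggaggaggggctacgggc
GCNT3, chr15:59595600-59595679, hg38, plus strand: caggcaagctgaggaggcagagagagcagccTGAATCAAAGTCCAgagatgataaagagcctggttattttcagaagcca
ST6GALNAC4, chr9:127916228-127916307, hg38, plus strand: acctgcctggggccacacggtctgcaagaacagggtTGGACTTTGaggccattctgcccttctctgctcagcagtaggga

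Region by region, these 6 did not move one way. The GALNT7 region 22626 bp from a start site stood at percentile 79.1 in control (Cas9) and 65.2 in HNF4G-KO, a change of -10.8. The other GALNT7 region, 49885 bp from a start site and at percentile 30.25, was control-only. The B3GNT5 region went from 80.3 to 62.25 (change -15.6) and the FUT2 promoter region from 84.9 to 77.7 (change -4.74). At the GCNT3 promoter the percentiles were 89.5 and 89.05 (change 1.78). The ST6GALNAC4 promoter region rose by 32.5, from percentile 41.2 to 61.6, but its HNF4G-KO counterpart no longer spanned the consensus. In the KPC primary tumor list the consensus stood in 7 regions near members (2.201% of 318, against 1.484% of the list), of which 4 are shown.
Galnt10, chr11:57694577-57694656, mm10, plus strand: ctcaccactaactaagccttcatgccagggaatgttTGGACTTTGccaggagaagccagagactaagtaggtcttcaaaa
Gcnt1, chr19:17385482-17385561, mm10, plus strand: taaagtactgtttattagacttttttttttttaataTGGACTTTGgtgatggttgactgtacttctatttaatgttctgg
St3gal6, chr16:58519956-58520035, mm10, plus strand: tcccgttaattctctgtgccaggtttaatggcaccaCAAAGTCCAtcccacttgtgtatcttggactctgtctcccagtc
St6gal1, chr16:23320785-23320864, mm10, plus strand: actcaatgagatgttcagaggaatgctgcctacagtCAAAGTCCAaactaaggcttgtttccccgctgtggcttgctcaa

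The Galnt10 region went from percentile 80.1 in the primary tumor to 66.9 in liver mets (change -20.2) and the St6gal1 region from 75.75 to 72.9 (change -8.03). The Gcnt1 region went up from 46.5 to 67.8 (change 17.2) and the St3gal6 region from 59.5 to 73.7 (change 10.65). Of the 3 not shown, the regions near Galnt1 and B4galt5 changed by -26.4 and -2.02 and the region near B3gnt3 by 5.64, so 4 of the 7 fell and 3 rose. The B4galt5 counterpart in liver mets no longer spanned the consensus. The B3gnt3 region met more than 1 liver mets region and was matched to one at percentile 87.5. Its consensus lay in another, at percentile 41.7, so that rise does not describe the stretch with the consensus. The other consensus sequences were as frequent near members as elsewhere in the control (Cas9) list. FOXA was found in 9.95% of the 432 regions against 9.76% of all, GATA in 7.18% against 6.63% and AP-1 in 37.5% against 39.1%. In the primary tumor list these shares were 7.86% against 9.71%, 7.55% against 8.05% and 43.7% against 46.0%. A match describes letters only and is not a measured binding site.

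In HPAF-II cells nearly all members, which were chosen with earlier results of these data known, were open at the promoter in both lists. Their counts beside all genes may partly reflect that choice. All 34 members had a promoter region, defined as a region within 1 kb of any of the gene's start sites, in control (Cas9), where 74.9% of protein-coding genes had one. In HNF4G-KO 33 had one, against 72.8% of protein-coding genes. The exception was B3GNT6, the core 3 synthase, whose control (Cas9) region lay 836 bp from a start site at percentile 2.46. The nearest HNF4G-KO region to B3GNT6 was 3983 bp away. Across the genome 2.69% of protein-coding genes had a promoter region in control (Cas9) alone and 0.634% in HNF4G-KO alone. In 30 of the 33 members with a promoter region in both lists, the strongest one stood above percentile 50 in control (Cas9).

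The core 1 genes had some of the strongest promoters, with C1GALT1C1 at percentile 96.95 in control (Cas9) and 95.2 in HNF4G-KO and C1GALT1 at 92.3 and 89.6. GALNT3 (96.8 and 95.5), B3GNT7 (94.4 and 92.2), B3GNT5 (93.55 and 98.35) and FUT4 (92.96 and 96.35) were alongside. Promoters of the sialyltransferases ran from ST6GAL1 at 10.1 and 6.12 to ST3GAL4 at 90.3 and 87.5 and ST6GALNAC2 at 88.2 and 92.5. The strongest ST6GAL1 promoter regions did not overlap between the lists, but lay within the same kilobase around its start sites.

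Regions of 1 list near members were fewer in share than in the whole list for control (Cas9). Of the 432 regions 81 were control-only, 18.75% (Wilson 95% interval 15.35 to 22.7, which covers counting error only), against 25.0% of the whole list and 22.75% near any protein-coding gene. Of the 387 HNF4G-KO regions 32 were KO-only, 8.27% (5.92 to 11.4), against 6.76% of the whole list. These regions were weak, with a median percentile of 17.9 for control-only and 7.57 for KO-only regions near members. At least 1 control-only region was found near 32 of 34 members (79.9% of protein-coding genes with any region had one) and at least 1 KO-only region near 19 of 34 (36.8%). The members have more regions than most genes, a median of 13 in control (Cas9) against 9, which raises such counts. The control (Cas9) list is longer, and with the longer list cut to the length of the shorter one by score the shares were 10.8% control-only and 14.7% KO-only, so the order of the 2 shares depends on list length.

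**Figure D1:**
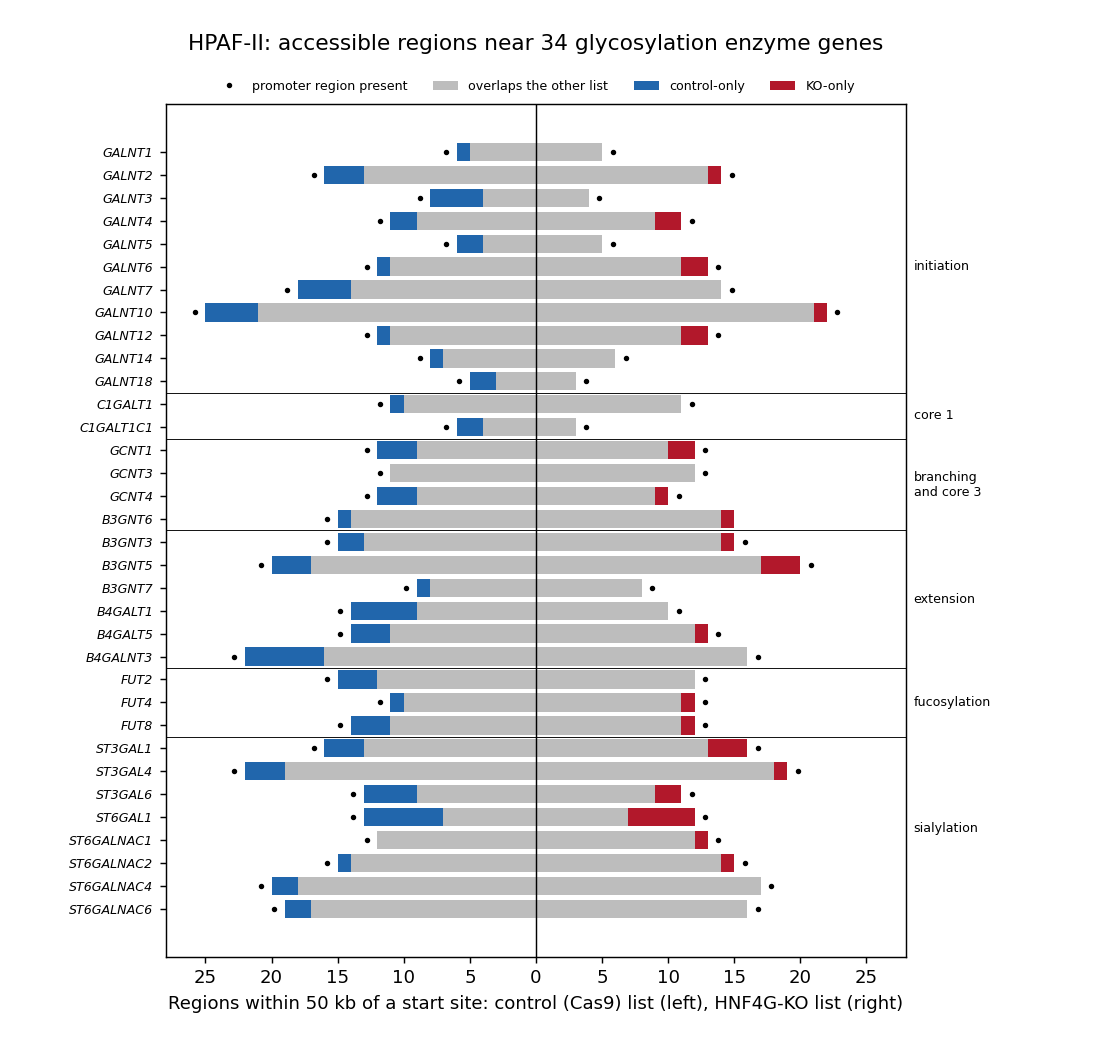
Number of regions near each of the 34 members in HPAF-II, with the control (Cas9) list to the left and the HNF4G-KO list to the right. Gray bars are regions that overlap the other list, blue and red bars are control-only and KO-only regions, and a dot marks a promoter region, which all members but B3GNT6 had in both lists.

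Initiating GALNT genes held the sharpest loss. GALNT3, which glycosylates FGF23 and mucins in secretory epithelia, had 8 control (Cas9) regions and 4 in HNF4G-KO. Of the 8, 4 were control-only, at percentiles 46.5, 21.15, 3.24 and 1.94, and no KO-only region appeared. Among the 4 shared regions the promoter changed by -0.75, whereas a region 35888 bp from a start site went from percentile 69.3 to 21.4 (change -42.9) and one 22116 bp away from 61.8 to 13.0 (change -40.2). The remaining shared region changed by 2.16. The median of -20.5 rests on these 4 regions, and 0.321% of genes with at least 3 shared regions had a median as low or lower. Within 10 kb of a start site only the promoter and the region with the change of 2.16 remained, with a median of 0.69 less that of all shared regions. The 2 regions that fell most lie in intergenic sequence and in an lncRNA intron, and both were narrower in HNF4G-KO, at 209 bp against 568 bp and 217 bp against 373 bp. The central 200 bases of each are shown as the 2 largest falls near any member, and hold none of the 4 consensus sequences, although the first region has 1 AP-1 consensus outside them.
GALNT3, chr2:165725636-165725835, hg38, plus strand: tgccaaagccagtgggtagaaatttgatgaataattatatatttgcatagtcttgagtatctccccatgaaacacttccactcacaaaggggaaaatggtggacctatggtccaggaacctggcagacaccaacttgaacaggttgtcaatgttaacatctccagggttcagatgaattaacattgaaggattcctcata
GALNT3, chr2:165816861-165817060, hg38, plus strand: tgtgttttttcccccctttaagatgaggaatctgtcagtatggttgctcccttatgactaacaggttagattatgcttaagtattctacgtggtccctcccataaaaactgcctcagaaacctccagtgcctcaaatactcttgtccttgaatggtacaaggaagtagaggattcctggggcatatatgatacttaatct

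GALNT7, which prefers to add to peptides that already carry a sugar, had 18 control (Cas9) regions, of which 4 were control-only, and 14 in HNF4G-KO, none KO-only. Of its 14 shared regions 12 fell, with a median of -8.19 and a range of -16.6 to 6.36, so the shift was spread along the gene. Of its promoter regions one went from percentile 71.6 to 59.9 (change -6.65) and the other from 60.4 to 57.9 (change 5.82). The strongest region near the gene, 29390 bp from a start site, kept percentiles of 99.65 and 97.9.

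The other GALNT genes moved little or upward. GALNT14 had a median of 6.58 over 7 shared regions. Ranked in whole lists, its median less that of all shared regions was 0.78. GALNT1 had a median of 4.34 over 5, GALNT6 of 4.00 over 11 and GALNT12 of 3.38 over 11. GALNT2 (0.38 over 13), GALNT10 (1.81 over 21), GALNT18 (0.96 over 3), GALNT5 (-0.89 over 4) and GALNT4 (-1.95 over 9) lay near the middle. For reference, the median of the gene medians was 0.78 over 16822 genes, with the middle 80% between -5.18 and 6.50. GALNT12 gained 2 KO-only regions at its promoter, at percentiles 25.6 and 16.1, beside a shared promoter region at 90.1 in control (Cas9) and 85.3 in HNF4G-KO.

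At the core 1 step C1GALT1 had the highest median of all members, 9.40 over 10 shared regions, a value that 96.2% of genes did not exceed. Its region at the upstream start site went from percentile 59.0 to 76.4 (change 28.0), and the region 1057 bp away went from 28.3 to 1.31 (change -13.0). The upstream promoter region met more than 1 HNF4G-KO region, and over regions with a single partner each the median of C1GALT1 less that of all shared regions was 6.97. Within 10 kb of a start site it was 0.97 over 4 regions, below the 16.2 of GALNT14 and the 9.63 of ST3GAL1. Weak distal regions rose as well, for example from 11.3 to 29.5 at 41606 bp. C1GALT1C1 had 6 control (Cas9) regions with 2 control-only, and a median of -0.68 over 4 shared regions, among them a rise of 46.1 at a 201 bp region whose HNF4G-KO partner was 668 bp wide.

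Branching genes stayed close to 0. GCNT3, the mucin-type enzyme of core 2 and core 4 branches, had no control-only and no KO-only region among 11 and 12 regions and a median of 0.10, the one member with neither kind. GCNT1 (0.71 over 9), GCNT4 (1.46 over 9) and B3GNT6 (2.84 over 14) had small positive medians. GCNT1 held a fall of -31.9 at its most upstream start site and also the strongest KO-only region near a member, 219 bp wide at percentile 35.6 and 735 bp from a start site.

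Among the extending enzymes B4GALNT3, which makes the LacdiNAc terminus, stood lowest. It had 22 control (Cas9) regions with 6 control-only, 16 in HNF4G-KO with none KO-only, and 11 of its 16 shared regions fell (median -6.21, lowest -20.6). All 3 shared promoter regions fell, from percentile 73.95 to 61.6 (change -7.95), from 62.7 to 40.0 (change -16.3) and from 39.1 to 10.2 (change -15.9). B4GALT1, a galactosyltransferase of N-acetyllactosamine chains, had 5 control-only regions of 14 and none KO-only. Its promoter went up from 71.8 to 84.2 (change 19.9), the largest rise of its 9 shared regions, of which 5 fell (median -1.54). B3GNT5, the synthase of lacto-series glycolipids, had 3 control-only and 3 KO-only regions of 20 in each list and a median of 2.67. B3GNT3 (2.34 over 13) and B4GALT5 (1.60 over 11) had positive medians and B3GNT7 a negative one (-2.81 over 8).

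**Figure D2:**
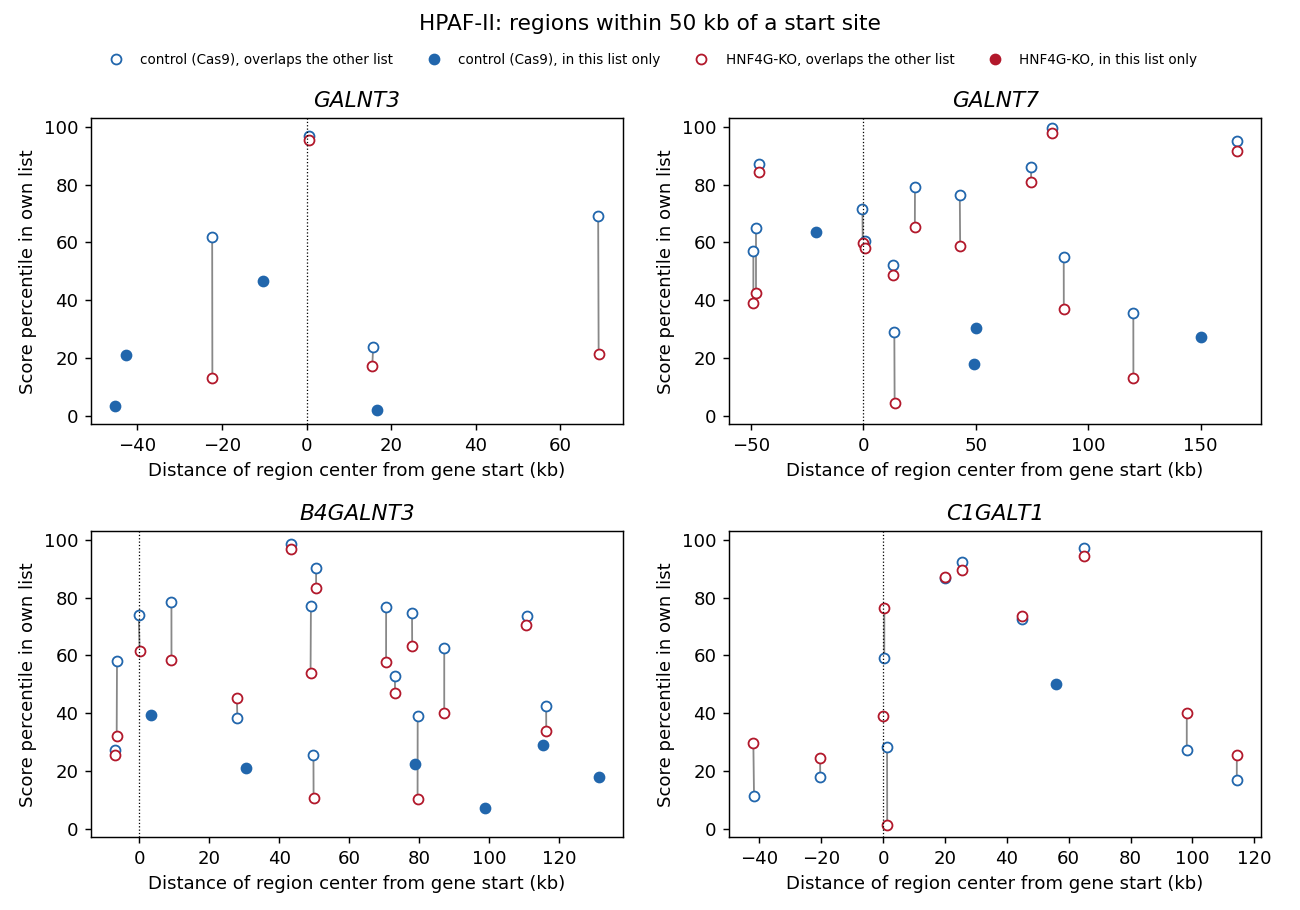
Score percentile of each region in its own list against the distance of its center from the 5' end of the gene for GALNT3, GALNT7, B4GALNT3 and C1GALT1 in HPAF-II. Open circles overlap the other list, filled circles are in 1 list, and lines join a control (Cas9) region to its HNF4G-KO partner. Most lines point down in HNF4G-KO at GALNT7 and B4GALNT3, and weak regions of C1GALT1 point up. The 2 long lines at GALNT3 run from percentile 69.3 to 21.4 and from 61.8 to 13.0.

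Of the fucosyltransferases, FUT2, which makes the H antigen in secretions, had 3 control-only regions of 15 and a median of 0.20 over 12. FUT8 acts on N-glycans and had a median of 1.72 over 11. FUT4, a Lewis x synthase, had a median of -3.24 over 10 shared regions that ran from -39.4 to 47.5. The lower end is set by pairing: the 2103 bp promoter region in control (Cas9), at percentile 92.96, overlapped 2 HNF4G-KO regions at 96.35 and 55.9 and was matched to the longer overlap. Over regions with a single partner each the median less that of all shared regions was -1.56.

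The sialyltransferases tended upward. Their 85 distinct shared regions had a median change of 3.37 (quartiles -3.57 and 8.27), with 31 below 0. The median was 0.01 for all shared regions, 0.44 for the GALNT genes and 5.04 for the 14 shared regions of the core 1 genes. ST3GAL1, which caps core 1, had a median of 6.65 over 13, with 3 control-only and 3 KO-only regions of 16 in each list. ST6GALNAC2 had 5.68 over 14, ST3GAL4 4.84 over 19, ST6GALNAC6 4.58 over 17 and ST6GALNAC4 4.48 over 18, the last pair sharing most regions. ST6GALNAC1, the sialyl-Tn synthase, had no control-only region of 12, a median of 1.54, and a promoter at percentile 51.4 in control (Cas9) and 58.2 in HNF4G-KO. ST3GAL6 (0.22 over 9) had 4 control-only regions of 13 and 2 KO-only of 11. ST6GAL1, which sialylates N-glycans, had 6 control-only of 13 and 5 KO-only of 12, the most of any member. Its control-only regions stood between percentiles 0.29 and 23.1 and its KO-only regions between 0.12 and 6.12. Its median over 7 shared regions was -2.44.

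Over all 351 shared control (Cas9) regions near members the median change was 0.99 (order-statistic 95% interval 0.06 to 2.14), against 0.01 for all 88632 shared regions. That interval takes regions as independent, though many lie near the same gene, and leaves out the spread between replicates. Over all genes with at least 3 shared regions, the median of the gene medians was 0.78. The median was below 0 for 10 members and above 0 for 24, against 40.5% below 0 among genes with at least 3 shared regions. The 40 other pathway genes included further GALNT, GCNT, B3GNT, B3GALT, B4GALT, FUT and sialyltransferase genes. Of them 29 (72.5%) had a promoter region in control (Cas9) and 27 (67.5%) in HNF4G-KO. Among all protein-coding genes these shares were 74.9% and 72.8%. Near the other pathway genes 21.3% of 366 regions were control-only and 6.03% of 315 were KO-only.

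In KPC cells fewer members were open at the promoter. In the primary tumor 26 of 34 had a promoter region (57.9% of protein-coding genes) and in liver mets 28 of 34 (59.0%). Galnt5, Galnt6, Galnt14, B3gnt5, B3gnt6 and St6galnac1 had none in either list, although all 6 human genes had one in control (Cas9). A promoter region can lie at any annotated start site, and these differ in number, as with 17 for GALNT6 and 2 for Galnt6. ST6GALNAC1 had 9 against 1 for St6galnac1, while B3GNT6 and B3gnt6 had 1 each. The control (Cas9) list is also longer than the primary tumor list, and the part of either was not tested. Galnt5 and B3gnt5 had no region of any kind within 50 kb in either KPC list, while GALNT5 and B3GNT5 had 6 and 20 in control (Cas9). The strongest KPC promoters were those of Gcnt1, the core 2 branching enzyme, at percentile 98.0 in the primary tumor and 95.2 in liver mets, and of B4galt5 at 83.0 and 88.1.

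B3gnt7 and Fut2 had a promoter region in liver mets alone, which 2.19% of protein-coding genes did, and no member had one in the primary tumor alone (1.06%). Over the upper 75% of each list by score this turned, with promoter regions at 26 members in the primary tumor and 25 in liver mets and 1 member in the primary tumor alone. B3gnt7, an enzyme of poly-N-acetyllactosamine chains, had 1 region in the primary tumor and 5 in liver mets, of which 4 were mets-only at percentiles between 17.6 and 20.0. Of these, 2 lay within 3 kb of its start sites and 2 lay nearer to Ncl. The Fut2 region stood at percentile 1.96. The central 200 bases of the B3gnt7 promoter region are shown.
B3gnt7, chr1:86301818-86302017, mm10, plus strand: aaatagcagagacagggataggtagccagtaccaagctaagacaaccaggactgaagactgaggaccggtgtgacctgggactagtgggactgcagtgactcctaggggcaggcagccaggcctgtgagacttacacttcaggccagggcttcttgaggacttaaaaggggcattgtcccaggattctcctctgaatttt

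Of the 318 primary tumor regions 33 were tumor-only, 10.4% (7.49 to 14.2), against 8.51% of that list. Of the 330 liver mets regions 39 were mets-only, 11.8% (8.77 to 15.75), against 20.2% of that list and 17.7% near any protein-coding gene. Here too the regions were weak, with median percentiles of 9.68 and 17.6. At least 1 tumor-only region was near 22 of the 32 members with any region (40.6% of protein-coding genes) and at least 1 mets-only region near 24 of 32 (67.4%). Here too the members have more regions than most genes, a median of 10 in the primary tumor against 6, which raises such counts. With the lists cut to equal length the shares were 18.55% tumor-only and 7.39% mets-only. Near the 36 other pathway genes 7.73% of 233 primary tumor and 15.65% of 262 liver mets regions were in 1 list.

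**Figure D3:**
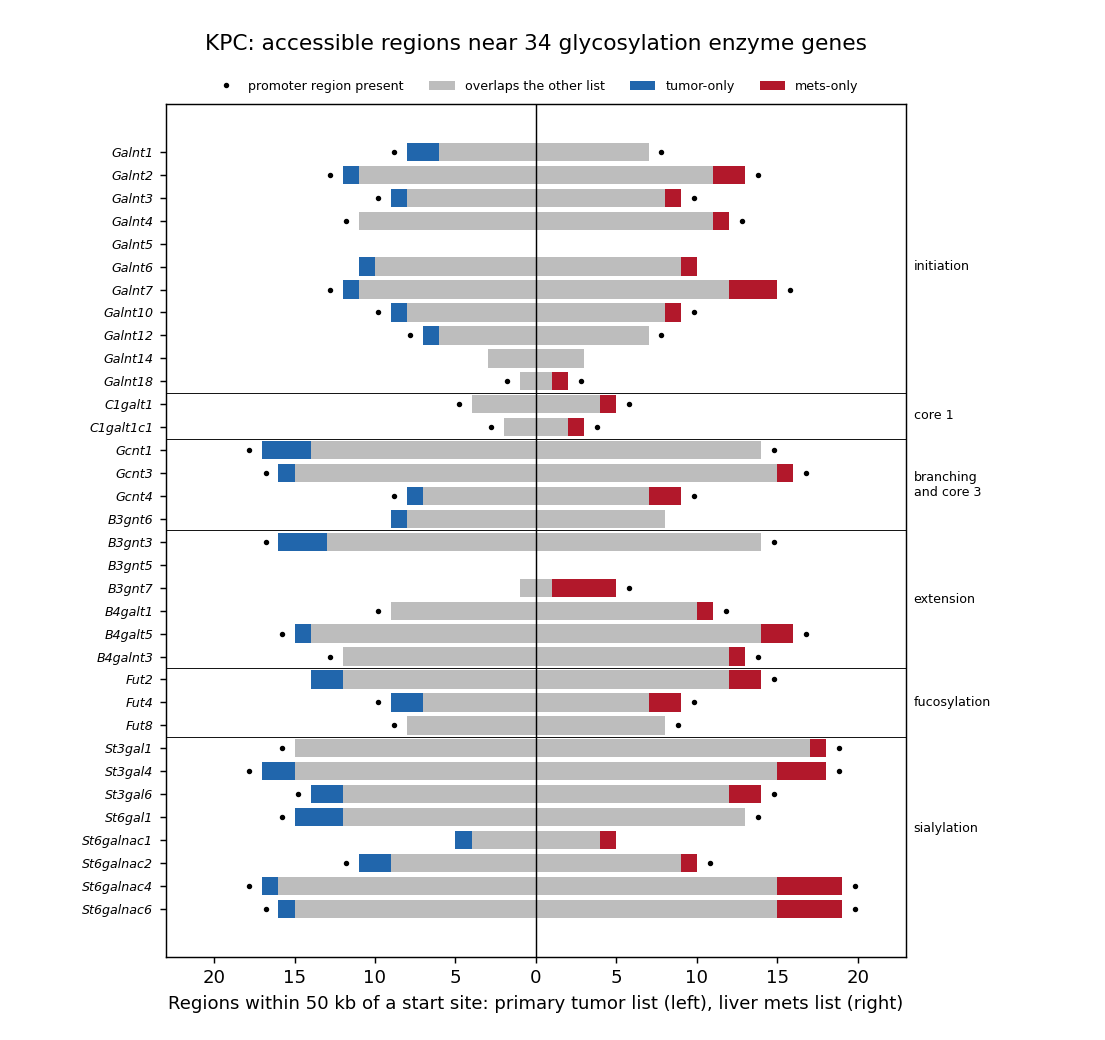
Number of regions near each of the 34 members in KPC cells, with the primary tumor list to the left and the liver mets list to the right. Gray bars overlap the other list, blue and red bars are tumor-only and mets-only regions, and a dot marks a promoter region. Galnt5 and B3gnt5 have no bar, and 4 of the 5 B3gnt7 regions in liver mets are red.

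At Fut4 and B4galnt3 the promoter region and most other shared regions within the window fell in liver mets. At Fut4 the promoter region went from percentile 56.6 to 33.8 (change -31.0) and a strong region 33624 bp away from 94.5 to 79.0 (change -20.9). In all 5 of its 7 shared regions fell, the median was -20.9, and 0.479% of genes with at least 3 shared regions had a median as low or lower. The region of highest percentile, 97.97, changed by 0.99 and lay on a start site of Ankrd49 in liver mets. The region that went from 94.5 to 79.0 lay on a start site of Piwil4. Among the shared regions only the promoter region lay nearest to Fut4 in liver mets. Fut4 also had 2 tumor-only and 2 mets-only regions, one of the latter at percentile 46.2.

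At B4galnt3 the promoter region went from 66.5 to 43.1 (change -32.6) and 8 of 12 shared regions fell, with a median of -11.2. A group of 3 regions between 23857 and 25830 bp from a start site changed by -26.7, -28.7 and -33.7. Its strongest region, at percentile 94.9 in the primary tumor, stood at 95.2 in liver mets. The strongest region changed by -0.65 among shared regions, and the remaining 3 falls were -12.2, -15.5 and -10.2 at 6619, 16902 and 19627 bp from a start site.

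Among the other initiating enzymes Galnt1 had a median of -13.5, with 5 of 6 shared regions lower. Its promoter region stood at percentile 37.1 and 37.4 in the whole lists, with a change of -6.93 among shared regions. Galnt14 had -7.22 over 3 shared regions. Galnt7 had 10 of 11 lower with a median of -3.04, and 3 mets-only regions of 15. Galnt2 (-3.29 over 11), Galnt10 (-2.27 over 8) and Galnt6 (-0.66 over 10) lay below 0 and Galnt3 above (3.27 over 8), although the largest fall near a member, -44.2, was at a Galnt3 region 19333 bp from a start site.

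Galnt4 and Galnt12 had the highest medians. Galnt4 had 10.6 over 11, a value that 96.5% of genes did not exceed, with rises of 42.8, 41.1 and 36.95. Most of its shared regions lay nearest to Phxr2 or Poc1b, among them those that rose by 41.1 and 36.95. The coding exon of Galnt4 lies beside Poc1b, and the rise of 42.8 came from 2 primary tumor regions that met the same 1000 bp region in liver mets. Without regions within 1 kb of any start site its median less that of all shared regions was 2.29 over 7, against 10.45 with them, and ranked in whole lists St3gal4 stood above it, at 11.8 against 10.25. Galnt12 had a median of 8.345 over 6, but its promoter region fell from 51.6 to 34.1 (change -25.4) and 3 of the 6 lay nearest to Anks6. That fall is set by pairing: the promoter region overlapped liver mets regions at 34.1 and 16.9 and was matched to the longer overlap. Over regions with a single partner each, the median of Galnt12 less that of all shared regions was 9.46. Galnt18 had a single shared region, at its promoter, which rose from percentile 30.1 to 69.7 (change 36.6).

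St3gal4, a sialyltransferase of sialyl Lewis structures, rose most evenly. Of its 15 shared regions 13 rose, with a median of 8.34 and a range of -7.31 to 37.6. Both promoter regions rose, from percentile 29.3 to 62.4 (change 28.5) and from 49.35 to 60.6 (change 5.62). It had 3 mets-only regions of 18, up to percentile 50.1, and 2 tumor-only of 17, up to 19.3. Several of its shared regions lay nearer to Kirrel3 or Dcps, and the rise of 37.6 was in a Dcps intron. St3gal1 (0.38 over 15), St6gal1 (0.37 over 12), St6galnac2 (2.98 over 9), St6galnac6 (1.19 over 15), St6galnac4 (-0.97 over 16), St3gal6 (-1.36 over 12) and St6galnac1 (-2.95 over 4) were near 0. Introns of St6gal1 held both a fall from 50.35 to 11.6 (change -40.5) and a rise from 31.7 to 81.0 (change 49.1).

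St6galnac4 and St6galnac6, which sialylate core 1 chains and glycolipids, shared 4 mets-only regions of 19. One of them, in a St6galnac4 intron 1854 bp from a start site, was the mets-only region of the highest percentile near any member, 63.8. Its central 200 bases hold an AP-1 consensus and are shown with the region of the largest rise, in an intron of St6gal1.
St6galnac4, chr2:32589550-32589749, mm10, plus strand: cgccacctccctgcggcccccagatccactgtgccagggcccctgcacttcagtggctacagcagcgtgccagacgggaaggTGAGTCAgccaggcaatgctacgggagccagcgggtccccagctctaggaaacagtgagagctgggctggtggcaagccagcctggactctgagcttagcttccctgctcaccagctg
St6gal1, chr16:23266480-23266679, mm10, plus strand: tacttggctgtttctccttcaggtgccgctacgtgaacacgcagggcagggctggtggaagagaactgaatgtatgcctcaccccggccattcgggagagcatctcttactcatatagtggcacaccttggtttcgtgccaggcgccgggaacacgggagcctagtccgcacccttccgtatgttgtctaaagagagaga

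**Figure D4:**
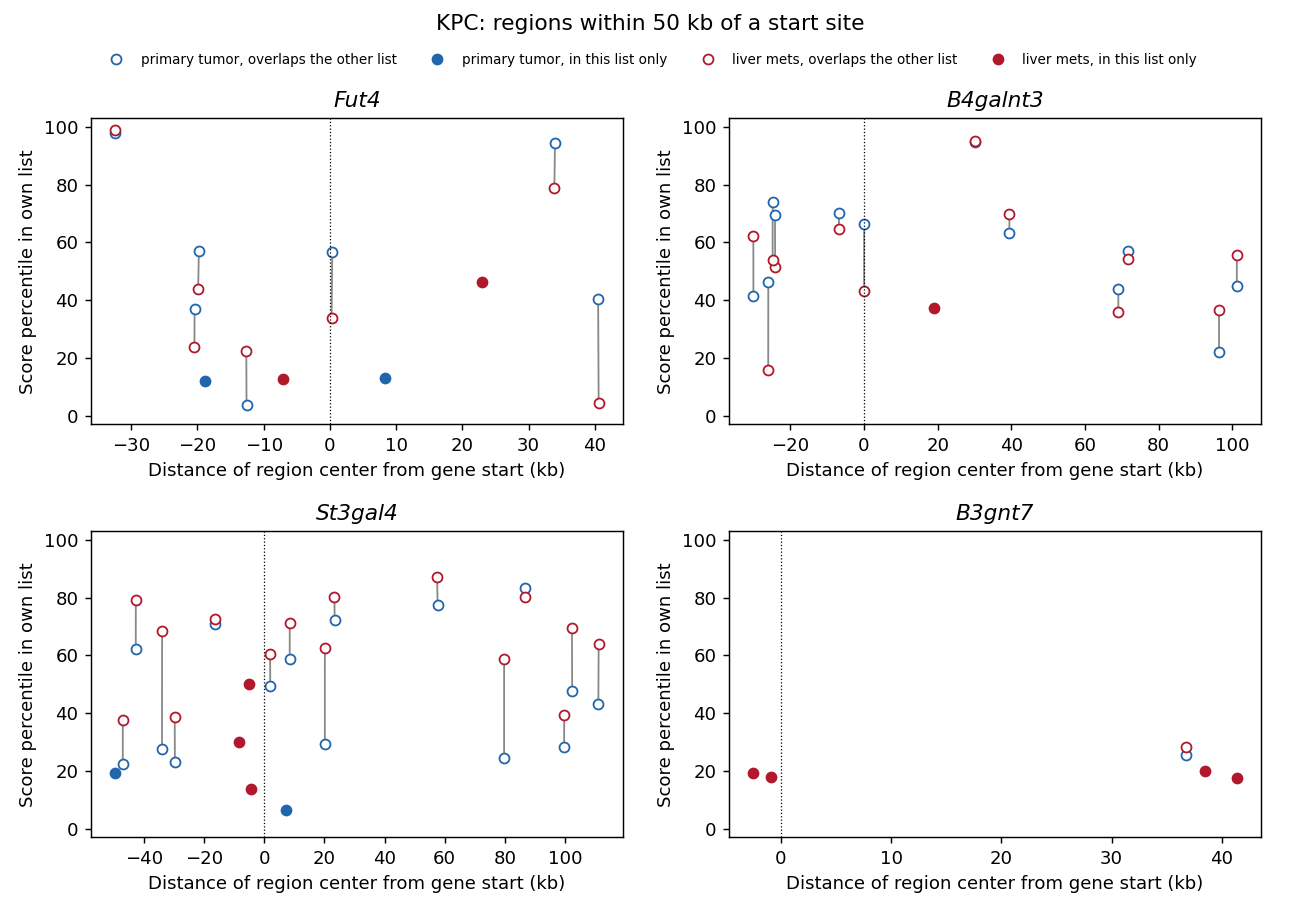
Score percentile of each region in its own list against the distance of its center from the 5' end of the gene for Fut4, B4galnt3, St3gal4 and B3gnt7 in KPC cells. Open circles overlap the other list, filled circles are in 1 list, and lines join a primary tumor region to its liver mets partner. Most lines point down at Fut4, where the promoter went from 56.6 to 33.8, and up at St3gal4, and B3gnt7 has 4 filled liver mets circles.

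Core 1 genes had medians near 0 in KPC cells and branching genes lay on both sides. C1galt1 had a median of -0.46 over 4 and C1galt1c1 0.26 over 2. Gcnt1 had the highest median among the branching genes, 5.27 over 14, with 3 tumor-only regions of 17 and none mets-only. Gcnt3 (-3.54 over 15), Gcnt4 (-1.36 over 7) and B3gnt6 (-2.40 over 8) lay below 0. Of the other extending and fucosylating genes B3gnt3 had -4.85 over 13, B4galt5 -1.42 over 14, B4galt1 1.81 over 9, Fut2 1.28 over 12 and Fut8 3.75 over 8.

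Over all 285 shared primary tumor regions near members the median change was -0.56 (order-statistic 95% interval -2.40 to 0.99), against 0.19 for all 62280 shared regions, and the interval spans both 0 and that value. This interval too takes regions as independent and leaves out the spread between replicates. Within 10 kb of a start site the median less that of all shared regions was 1.22 over 88 regions, the other sign from the -0.75 within 50 kb. The median was below 0 for 17 of the 29 members with at least 3 shared regions, against 48.5% of genes.

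**Figure D5:**
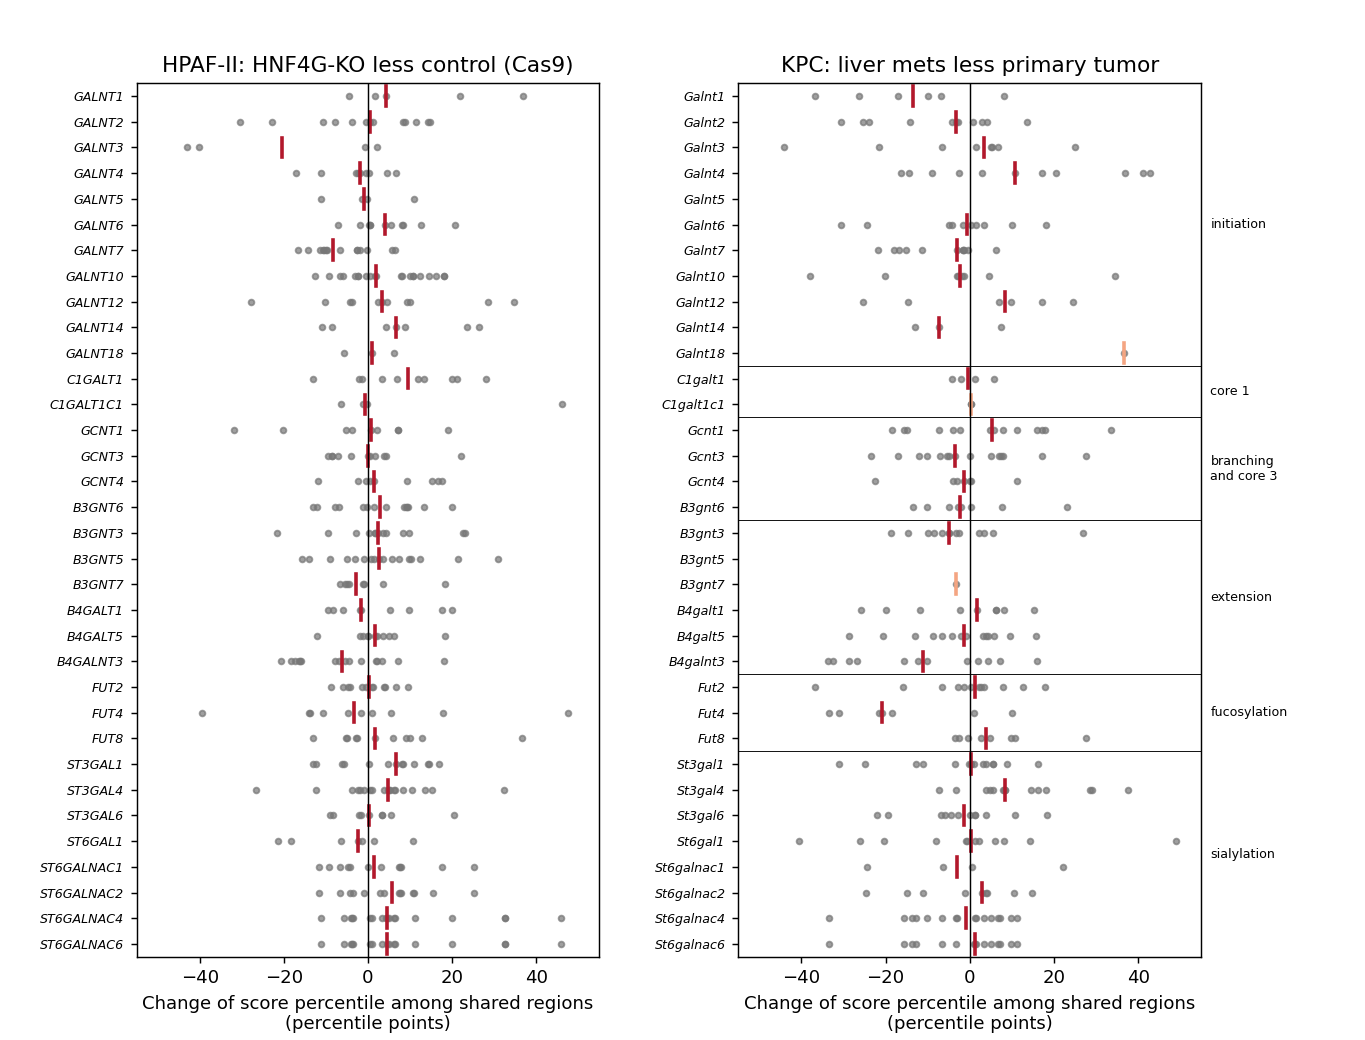
Change of score percentile of each shared region (gray points) and the median per member (red bars, pale where fewer than 3 regions) for HNF4G-KO less control (Cas9) and for liver mets less primary tumor. GALNT3, GALNT7 and B4GALNT3 have the lowest medians in HPAF-II, at -20.5, -8.19 and -6.21, and Fut4, Galnt1 and B4galnt3 in KPC, at -20.9, -13.5 and -11.2.

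Side by side, 29 members had at least 3 shared regions in both pairs. The median was below 0 in both pairs for 3 of them, GALNT7 (-8.19 and -3.04), B4GALNT3 (-6.21 and -11.2) and FUT4 (-3.24 and -20.9), and above 0 in both for 8, among them ST3GAL4 (4.84 and 8.34) and GALNT12 (3.38 and 8.345). It was above 0 in HPAF-II and below 0 in KPC for 14, such as GALNT1 (4.34 and -13.5), and the reverse for 4, such as GALNT3 (-20.5 and 3.27). The 2 pairs differ in species, in cells and in what was compared, and no relation between them was tested.

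HNF4G itself, the targeted gene, kept its promoter region at percentile 82.4 in control (Cas9) and 82.7 in HNF4G-KO, and accessibility does not check the edit. Of its 9 control (Cas9) regions 3 were control-only. Hnf4g had 4 regions in the primary tumor and 7 in liver mets, 3 of them mets-only. All 8 epithelial marker genes, such as EPCAM and KRT19, had promoter regions in both HPAF-II lists and 7 of 8 in both KPC lists. Promoter regions stood at 4 and 3 of 6 leukocyte, 3 and 3 of 6 fibroblast and 2 and 2 of 6 hepatocyte markers in control (Cas9) and HNF4G-KO. In the primary tumor and liver mets they stood at 1 and 1 of 5, 1 and 1 of 6, and 1 and 0 of 4. How many reads each list was called from is not known, and the part this plays in regions found in 1 list was not tested.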

How the data were processed

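The files held 1 region list per group of 4 replicates, made by the authors and deposited as BED files with a score per region whose scale is not given in the sources used here. The submitters' processing notes name Bowtie2 2.2.6, MACS2 2.1.1.20160309 and DiffBind without saying which step used which, and the builds hg38 and mm10. How replicates were combined, the calling threshold and any shift of reads to the insertion site are not given for ATAC-seq. For its ChIP-seq the study merged replicates before MACS2 calling, and whether the same was done here is not stated. The study's ATAC-seq methods describe Omni-ATAC for HPAF-II cells. No HPAF-II region ran past a chromosome end of hg38, and no KPC region past one of mm10. Depth per sample is unknown, so intervals on shares (Wilson, 95%) cover counting error only.

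Samples were grouped by title. Start sites were those of all transcripts of protein-coding genes in GENCODE release 44 (human) and M21 (mouse), the window was 50 kb, promoters 1 kb and sharing 1 bp of overlap. A region was matched to the partner with the longest overlap. Coordinates are 1-based. Overlap, distance and rank code was tested on simulated regions. Python 3.11.15, numpy 2.4.6, pandas 2.3.3 and SciPy 1.17.1 were used. Members and lists were chosen with earlier results of these data known. Genes described in full were those with a promoter region in 1 list, the 6 per pair with the most regions in 1 list, the 4 with the largest median change each way among members with at least 3 shared regions, and the other members by role. Alternatives to the window, promoter distance, overlap, score threshold, list length, start sites and ranking were computed.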

Additional observations from a re-analysis of the deposited data

How the results depend on the processing

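No paired analysis was possible because the lists hold no values per replicate, and for the same reason no replicate could be left out. Of 60 values of the comparisons recomputed under an alternative, 46 were counted as unchanged. For a share this meant lying within the Wilson interval of the main share, and its order against all regions was not part of the count. The tumor-only share with a window of 10 kb was counted as unchanged at 8.33%, below the 8.51% of all regions. The main share of 10.4% was above that value. With lists cut to equal length the shares in 1 list near members were 10.8% control-only, 14.7% KO-only, 18.55% tumor-only and 7.39% mets-only (all regions: 15.1%, 12.7%, 15.6% and 14.0%). Over the upper 75% of each list by score the KO-only share was 2.45%, below the 4.30% of all regions. It was 5.685% against 5.49% where a region within 500 bp of the other list counted as shared, an alternative chosen after seeing the data. Where 50% of a region had to be covered the control-only share was 22.9%, against 29.1% of all regions. Members with a promoter region in 1 list were 0 in HPAF-II and 1 in KPC with promoters within 500 bp or the upper 75% by score, and 1 in KPC with start sites of coding transcripts only. With a window of 10 kb the median change near members less that of all shared regions was 2.15 in HPAF-II and reversed to 1.22 in KPC, and the medians of GALNT3 and Galnt12 reversed to 0.69 over 2 regions and -25.6 over 1. Fewer regions enter at 10 kb. The cause of the other differences was not tested. All other medians of the named members kept their sign but not always their size, as at C1GALT1 (0.97 with a window of 10 kb, from 9.39), GALNT14 (0.78 when ranked in whole lists, from 6.57), FUT4 (-0.9996 without regions within 1 kb of a start site, from -3.26) and Galnt4 (2.29 without them, from 10.45).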
